A study of Mus musculus with 32 samples.

Results

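The semaphorins, plexins, neuropilins, Eph receptors and ephrins are among the main families of guidance signals and receptors between cells. Their transcripts were followed across the cell types of the mouse median eminence. Genes were taken by symbol: Sema or Plxn followed by a number or letter, Nrp1 and Nrp2, and Epha, Ephb, Efna or Efnb followed by a number. Of 56 such genes among the 27998 of the matrix, 51 reached the minimum of 20 unique molecular identifiers (UMIs, 1 per captured transcript) over all cells and were kept. The 51 genes comprised 27 ligands (19 semaphorins and 8 ephrins), 23 receptors (9 plexins, 2 neuropilins and 12 Eph receptors) and 1 long non-coding RNA, Plxna4os1, named for the strand opposite Plxna4. The 5 below the minimum were Sema3g with 9 UMIs, Epha6 with 5, Epha8 with 2, and Plxna4os2 and Plxna4os3 with 0.

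Semaphorins are secreted or membrane-bound ligands that act on plexins, and most class 3 semaphorins, which are secreted, need a neuropilin as the ligand-binding co-receptor. Ephrins are anchored to the cell surface, the A type by a lipid and the B type by a membrane span, and bind Eph receptor tyrosine kinases on the neighbouring cell, with signalling possible in both cells. The median eminence, at the base of the hypothalamus, is where neuroendocrine axon terminals, processes of tanycytes (ventricle-lining glia) and fenestrated vessels meet. Oligodendrocytes are also formed there, from oligodendrocyte progenitor cells (OPCs) through differentiating OPCs (diffOPCs) to myelinating oligodendrocytes (MOLs).

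The cells came from male C57B/L6 mice aged 40 to 47 days, 5 fasted overnight for 16 h and 5 fasted in the same way and then refed normal chow for 1 h. Per the labels, tissue was combined within each condition and the isolated cells were divided over 2 droplet libraries. The 5982 cells carry barcode numbers 1 to 4, which the labels do not tie to a library or condition, so fasted and refed cells were not compared and all cells were treated as 1 sample. The barcode numbers held 1642, 1493, 1359 and 1488 cells and serve only to show how values spread, not as replicates of a group.

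The cells were clustered and 13 types were named from their marker genes, with "-like" for each, leaving 60 cells in 2 small unnamed clusters and 3 cells with a high haemoglobin share. All markers measured were highest in the type they name, apart from 1 of the 7 OPC and 1 of the 10 neuron markers, and none of the 51 genes was a marker. Of the 51, 9 were among the 2000 variable genes behind the clusters, so a difference between types is a description and was not tested. The types differed widely in size, from 1634 tanycyte-like and 1420 astrocyte-like cells to 88 pars tuberalis-like, 84 endothelial-like and 75 mural-like cells, and in median depth, from 2245.5 UMIs in endothelial-like to 13412 in neuron-like cells. Levels are given as UMIs summed over the cells of a type and scaled to 1000000 UMIs of that type (CPM), with exact 95% Poisson intervals that cover counting error only. A single UMI was worth 4.65 CPM in endothelial-like and 4.45 CPM in mural-like cells, and a count of 0 there allows up to 13.95 and 13.34 CPM, so that low values in the vessel wall rest on few transcripts. A total of 21 barcode sequences occurred under 2 numbers each (42 cells).

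Of the 51 genes, 11 (21.6%) had a leading type, defined as a highest type at least 2-fold above the next after adding 10 CPM to both. Over the 15325 genes with at least 20 UMIs the same was true of 16%, and the median log2 ratio of the highest to the next type was 0.517 for the guidance genes and 0.297 for all genes. Endothelial-like cells led for 4 (Sema3c, Sema7a, Efna1 and Plxna2), beside 1.95% of all genes, and diffOPC-like cells for 3 (Plxnb3, Epha4 and Sema5a), beside 0.959%. The rest were single genes, with MOL-like cells leading for Efnb3 (1.45% of all genes), astrocyte-like cells for Sema4b (1.11%), VLMC-like cells (vascular and leptomeningeal cells) for Sema3a (1.27%) and ependymocyte-like cells for Sema3e (3.10%). For 10 of the 11, all but Plxna2, the same type was highest in each of the 4 barcode numbers. Their 4 values there did not overlap those of the next type. The 11 were picked on sums over the same numbers and the share over all genes was not counted, so this describes spread only.

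**Figure D1:**
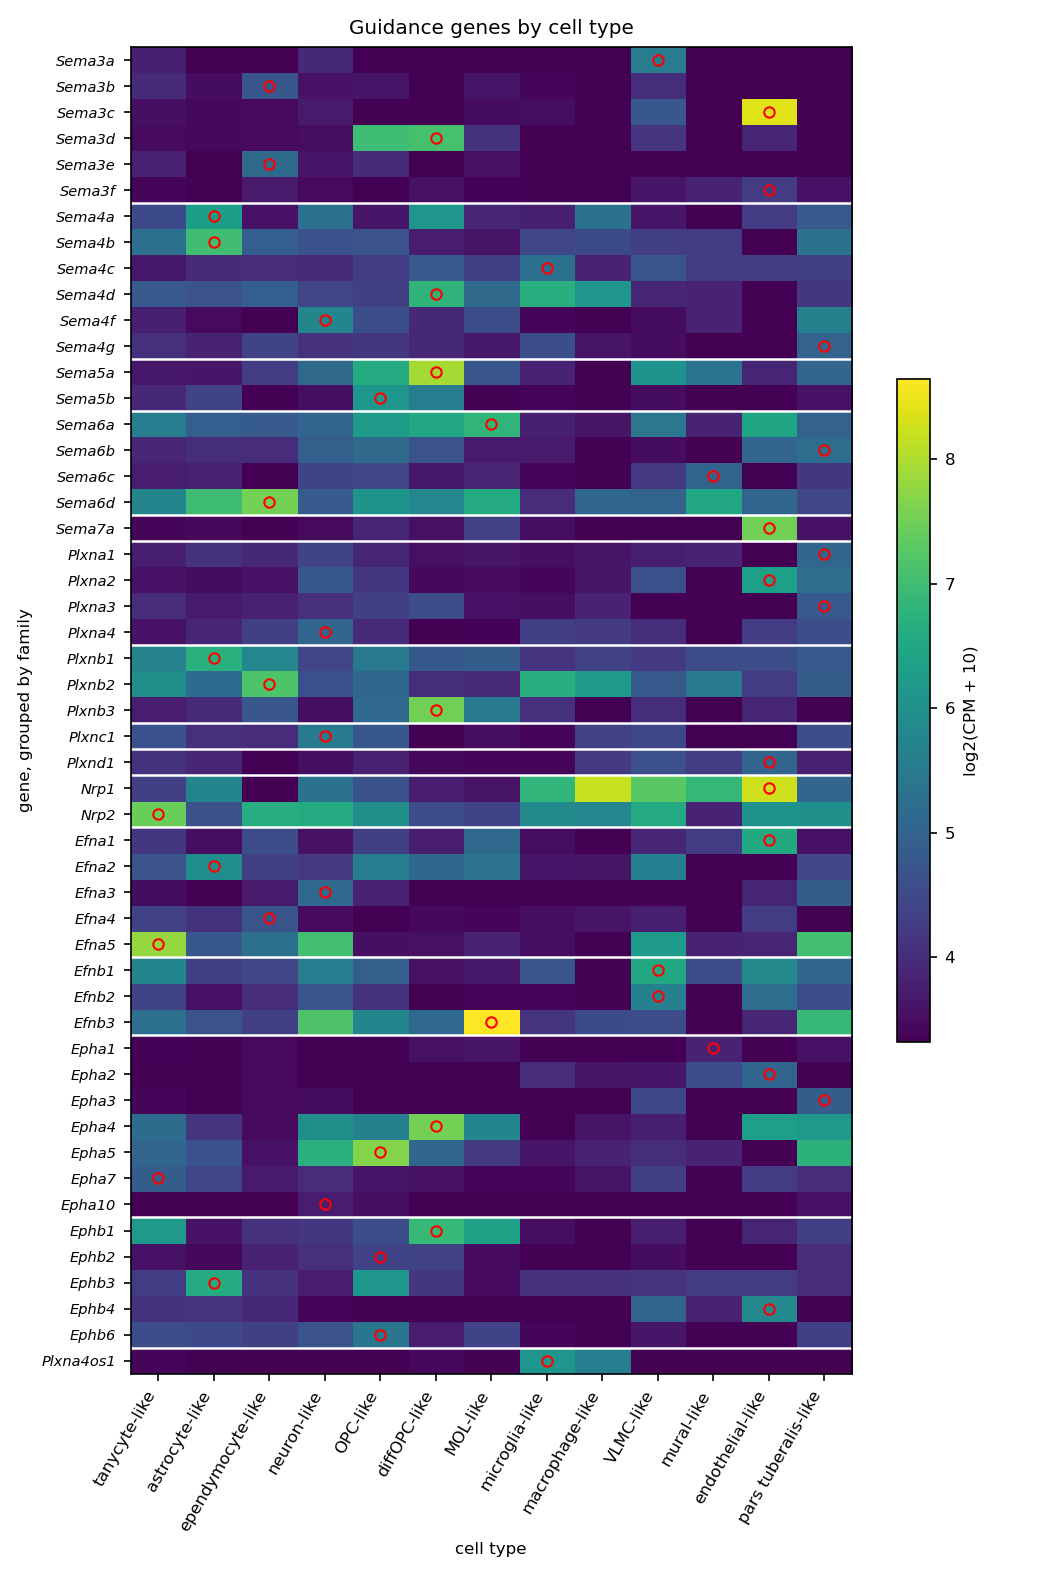
Level of each of the 51 genes (vertical axis, grouped by family) in each of the 13 cell types (horizontal axis), as log2(CPM + 10) by colour, with a circle on the highest type of each gene. Sema3c stands out in endothelial-like cells and Efnb3 in MOL-like cells, whereas Sema6d and Nrp1 are spread over many types.

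Counted by highest type, with or without a 2-fold lead, 9 of the 51 genes (17.6%) were highest in endothelial-like cells, against 9.61% of all genes. The next count was 6 in diffOPC-like cells (11.8%, against 8.33% of all genes). Neuron-like cells held 5 (9.8%, against 11.9%), astrocyte-like cells 5 (9.8%, against 5.89%), ependymocyte-like cells 5 (9.8%, against 12.4%) and pars tuberalis-like cells 5 (9.8%, against 7.56%). OPC-like cells held 4 (7.84%, against 12%) and tanycyte-like cells 3 (5.88%, against 3.58%). The remaining types held 3 (VLMC-like, against 5.21% of all genes), 2 (MOL-like, 5.09%), 2 (microglia-like, 6.35%), 2 (mural-like, 6.88%) and 0 (macrophage-like, 5.28%). The 9 genes highest in endothelial-like cells were Sema3c, Sema3f, Sema7a, Efna1, Nrp1, Plxna2, Plxnd1, Epha2 and Ephb4, but Sema3f rested on 2 UMIs there and Plxnd1 and Epha2 on 5 each.

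The RefSeq promoters (250 bases before to 50 after the annotated start, GRCm38.p6, all on the plus strand) are shown for 4 genes that head their families by cell type: Sema3c at chr5:17574566-17574865 and Sema7a at chr9:57939862-57940161, both led by endothelial-like cells, and Sema5a at chr15:32244563-32244862 and Plxnb3 at chrX:73756853-73757152, a ligand and its receptor both led by diffOPC-like cells. Capitals mark matches, on either strand, to ACAAAG (a Sox-type motif), CAGCTG (an E-box, its own reverse complement) or CCGGAA (an Ets-type motif), which do not overlap in these windows.
Sema3c: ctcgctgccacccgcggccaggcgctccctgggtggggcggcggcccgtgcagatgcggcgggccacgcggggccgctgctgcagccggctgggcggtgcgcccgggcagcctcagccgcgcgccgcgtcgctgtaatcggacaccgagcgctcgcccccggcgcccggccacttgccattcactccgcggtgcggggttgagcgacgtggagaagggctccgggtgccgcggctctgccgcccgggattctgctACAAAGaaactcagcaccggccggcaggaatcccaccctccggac
Sema7a: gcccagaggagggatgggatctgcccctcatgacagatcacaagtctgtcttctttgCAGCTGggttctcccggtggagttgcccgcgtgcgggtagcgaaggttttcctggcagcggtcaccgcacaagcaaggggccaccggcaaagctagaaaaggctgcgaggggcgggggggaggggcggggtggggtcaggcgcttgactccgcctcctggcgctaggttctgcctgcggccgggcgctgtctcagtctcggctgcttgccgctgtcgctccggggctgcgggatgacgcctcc
Sema5a: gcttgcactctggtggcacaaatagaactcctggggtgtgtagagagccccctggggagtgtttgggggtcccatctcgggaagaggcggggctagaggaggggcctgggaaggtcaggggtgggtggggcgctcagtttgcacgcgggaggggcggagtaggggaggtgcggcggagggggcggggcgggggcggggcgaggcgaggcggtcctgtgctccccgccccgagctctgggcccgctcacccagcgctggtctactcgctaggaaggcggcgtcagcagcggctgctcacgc
Plxnb3: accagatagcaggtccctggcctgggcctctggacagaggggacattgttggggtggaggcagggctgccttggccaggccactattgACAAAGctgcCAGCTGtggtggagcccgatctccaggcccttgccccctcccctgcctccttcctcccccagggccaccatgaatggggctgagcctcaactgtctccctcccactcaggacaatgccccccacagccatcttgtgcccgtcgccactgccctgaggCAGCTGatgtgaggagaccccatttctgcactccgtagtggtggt

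An entry was found for 44 of the 51 genes and for 10 of the 11 with a leading type (Efnb3 had none). Among those 10, ACAAAG occurred for Plxnb3, Sema3a and Sema3c, against 18.7% of all 32851 promoters. CAGCTG occurred for Plxnb3 and Sema7a, against 16.3% of promoters, and CCGGAA for Sema4b alone, against 14.9%. Plxnb3 held ACAAAG and 2 copies of CAGCTG, whereas the Sema5a window held none of the 3 motifs. Such matches are descriptions of the letters and not sites of binding.

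Among the class 3 semaphorins, the secreted ligands, Sema3c was concentrated in endothelial-like cells, at 325.6 CPM (253.8 to 411.3, 70 UMIs). By barcode number the values were 184.5, 389.9, 426.2 and 249.8 CPM. The lowest of these was far above the highest of the next type, VLMC-like cells, whose 4 values ran from 10.22 to 26.79 CPM, and the ratio of the types was 18.9 (10.54 to 36.3). Sema3c was found in 39 of 84 endothelial-like cells (46.4%, exact interval 35.5 to 57.6%; median depth 2245.5 UMIs) and in 0.901% of MOL-like cells, a type taken here as lacking it (median 6150 UMIs). With each cell thinned to 1000 UMIs, the shares were 25.0% and 0.15%.

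Sema3a, the prototype repellent of axons, had its top level, 36.9 CPM (24.9 to 52.7), in VLMC-like cells, with 71.55, 19.63, 26.79 and 31.77 CPM by barcode number. Barcode number 1 was high, but all 4 values exceeded those of neuron-like cells (4.643 to 5.961 CPM), and the ratio was 7.40 (4.36 to 12.5). Sema3e, which acts on Plxnd1 without a neuropilin, was highest in ependymocyte-like cells (ciliated ventricle-lining cells) at 26.0 CPM (17 to 38.1, 26 UMIs), with 14.48, 22.60, 39.78 and 23.64 CPM by barcode number and 4.71 times (1.99 to 12.9) the level of OPC-like cells. At 1000 UMIs per cell the log2 ratio for Sema3e was 0.60, short of 2-fold. Sema3b was likewise highest in ependymocyte-like cells, at 17.02 CPM (9.91 to 27.2), with an interval that overlapped that of VLMC-like cells (2.00 to 14.4). Sema3d was shared by the early oligodendrocyte lineage, with 126.8 CPM (107.0 to 149.3) in diffOPC-like and 116.7 CPM (98.7 to 137.1) in OPC-like cells and no more than 7.39 CPM in any other type.

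The class 4 semaphorins are membrane proteins. Sema4b was led by astrocyte-like cells at 119.8 CPM (109.2 to 131.1), with 116.7, 138.3, 108.2 and 112.2 CPM by barcode number. These values lay close together and above the 18.27 to 38.21 CPM of pars tuberalis-like cells, the next type (ratio 4.02, 2.41 to 7.24). Within the astrocyte-like cells, Sema4b was at 283.3 CPM in the cluster led by Spry2, 90.5 CPM in the cluster led by Agt and 40.02 CPM in the cluster led by Gfap. Sema4b was itself among the top 10 genes of the Spry2-led cluster, so that difference is partly how the cluster was drawn.

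Sema4a had 2 comparably high types, astrocyte-like cells at 67.8 CPM (59.9 to 76.4) and diffOPC-like cells at 59.9 CPM (46.5 to 75.9). Sema4d, the ligand of Plxnb1 and Plxnb2, was at 99.5 CPM (82.0 to 119.7) in diffOPC-like cells and 92.6 CPM (77.1 to 110.5) in microglia-like cells, with overlapping intervals, and at 58.1 CPM (38.3 to 84.6) in macrophage-like cells. Sema4f was highest in neuron-like cells at 44.6 CPM (39.7 to 50.03), beside 39.7 CPM (24.3 to 61.4) in pars tuberalis-like cells. Sema4c (28.4 CPM in microglia-like cells) and Sema4g (21.9 CPM in pars tuberalis-like cells) were low in every type, and no highest type was apart from the next by its interval.

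Of the class 5 semaphorins, membrane ligands with thrombospondin repeats, Sema5a was led by diffOPC-like cells at 233.4 CPM (206.2 to 263.3), with 247.5, 182.7, 275.9 and 211.8 CPM by barcode number. OPC-like cells came next at 87.6 CPM (72.0 to 105.4) and their 4 values, 67.83 to 106.2 CPM, lay below all 4 of the diffOPC-like cells (ratio 2.67, 2.13 to 3.36). Without barcode number 3 the log2 ratio for Sema5a was 0.92, just short of 2-fold. Sema5b was highest one stage earlier, at 59.9 CPM (47.2 to 75.0) in OPC-like and 37.9 CPM (27.4 to 51.0) in diffOPC-like cells.

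The class 6 semaphorins, which span the membrane and act on A plexins, were spread widely. Sema6d had its highest level in ependymocyte-like cells at 175.2 CPM (150.2 to 203.1), with 193.1, 197.7, 170.0 and 156.6 CPM by barcode number, and was at 117.2 CPM (106.7 to 128.4) in astrocyte-like, 86.7 in MOL-like and 80.0 in mural-like cells. Sema6a was highest in MOL-like cells at 101.4 CPM (92.5 to 111.1), followed by diffOPC-like cells at 81.0 CPM (65.3 to 99.4), endothelial-like cells at 79.1 (46.1 to 126.6) and OPC-like cells at 64.7 (51.4 to 80.3). Its first place rested on 27 MOL-like cells of the cluster led by Mag, since the clusters led by Ptgds (76.4 CPM) and Klk6 (58.0 CPM) lay below the diffOPC-like level. Sema6b and Sema6c stayed at or below 27.8 and 22.2 CPM, with overlapping intervals among their highest types.

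Sema7a, a lipid-anchored semaphorin that binds Plxnc1 and integrins, was led by endothelial-like cells at 172.1 CPM (121.2 to 237.2, 37 UMIs), with 147.6, 201.2, 182.7 and 124.9 CPM by barcode number. All 4 values exceeded 100 CPM, whereas MOL-like cells, the next type, gave 7.776 to 14.14 CPM (ratio 16.2, 10.3 to 25.3). Tanycyte-like cells held 4 UMIs of Sema7a, or 0.579 CPM (0.158 to 1.48). Sema7a was found in 25 of 84 endothelial-like cells (29.8%) and 0.245% of tanycyte-like cells (median depth 4102 UMIs), and at 1000 UMIs per cell in 15.5% and in 0 of the 1634 tanycyte-like cells, which allows up to 3.

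**Figure D2:**
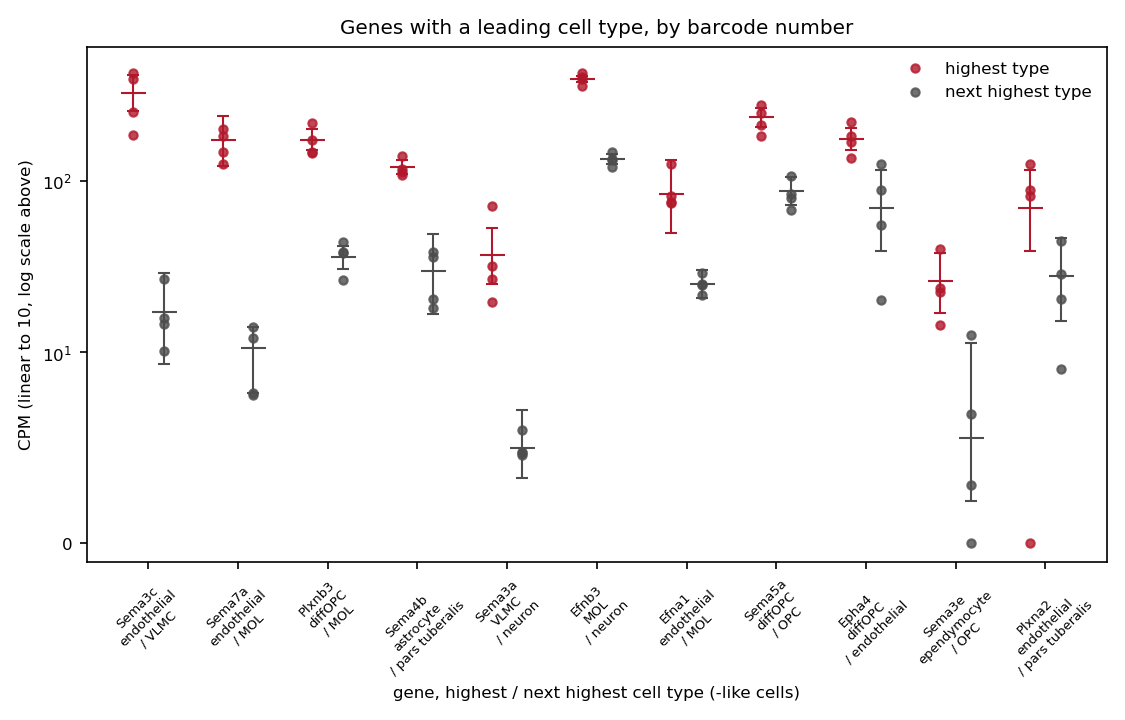
CPM of the 11 genes with a leading type, in the highest type (red) and the next (grey), with a point for each barcode number, a horizontal line for the whole type and its exact Poisson interval as the error bar. The vertical axis is linear up to 10 CPM and logarithmic above. The red and grey points are apart for each gene except Plxna2, where barcode number 1 held 0 UMIs in endothelial-like cells.

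The ephrin-B ligand Efnb3 was led by MOL-like cells. It was at 391.0 CPM (373.2 to 409.5) in MOL-like cells, with 424.9, 399.6, 390.7 and 353.8 CPM by barcode number, and at 133.4 CPM (124.8 to 142.6) in neuron-like cells (ratio 2.93, 2.70 to 3.18). Pars tuberalis-like cells followed at 109.2 CPM (82.3 to 142.2), while diffOPC-like cells had 25.5 CPM (17.1 to 36.7). Its level was alike in the MOL-like clusters led by Ptgds (396.3 CPM), Klk6 (387.8) and Mag (352.8). Efnb3 was found in 91.9% of MOL-like cells, against 2.24% of microglia-like cells (median depths 6150 and 3079.5 UMIs), and at 1000 UMIs per cell in 32.6% and 0.498%. In neuron-like cells the shares were 77.0% (median depth 13412 UMIs) and, at 1000 UMIs per cell, 11.2%. Efnb1 and Efnb2 had their highest level in VLMC-like cells, at 83.7 CPM (65.0 to 106.1) and 40.6 CPM (28.0 to 57.1), and in both the interval overlapped that of endothelial-like cells (22.3 to 85.5 and 10.2 to 60.7).

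Among the ephrin-A ligands, Efna5 was highest in tanycyte-like cells at 215.0 CPM (204.2 to 226.2), with 235.7, 236.5, 191.1 and 189.5 CPM by barcode number. Pars tuberalis-like cells at 121.2 CPM (92.7 to 155.6) and neuron-like cells at 120.7 CPM (112.5 to 129.4) came next and did not differ beyond their intervals. Efna5 was found in 51.6% of tanycyte-like cells and 0.498% of microglia-like cells (median depths 4102 and 3079.5 UMIs), and at 1000 UMIs per cell in 17.5% and in 0 of 402, which allows up to 3. The shares were 63.6% in neuron-like and 42.05% in pars tuberalis-like cells (median depths 13412 and 5153.5 UMIs). At 1000 UMIs per cell these were 8.86% and 9.09%. Efna1 was led by endothelial-like cells at 83.7 CPM (49.6 to 132.3, 18 UMIs), with 73.80, 75.46, 81.19 and 124.9 CPM by barcode number, all above the 21.62 to 29.06 CPM of MOL-like cells (ratio 3.33, 1.91 to 5.50). Efna2 was highest in astrocyte-like cells (50.5 CPM, 43.7 to 58.0), Efna3 in neuron-like cells (25.3 CPM, 21.6 to 29.4) and Efna4 in ependymocyte-like cells (16.01 CPM, 9.15 to 26.0), none of them with a 2-fold lead.

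The neuropilins, the co-receptors of class 3 semaphorins and of vascular endothelial growth factor, had different highest types. Nrp1 was at 297.7 CPM (229.2 to 380.1) in endothelial-like and 284.1 CPM (237.7 to 336.9) in macrophage-like cells, which did not differ beyond their intervals, and then at 145.3 CPM in VLMC-like, 106.7 in mural-like and 103.9 in microglia-like cells. Its 4 values were 313.7, 276.7, 223.3 and 437.2 CPM in endothelial-like and 342.4, 246.9, 358.2 and 131.4 CPM in macrophage-like cells, so the groups overlapped. Nrp1 was at 2.17 CPM (1.04 to 3.99) in MOL-like cells. Nrp2 was highest in tanycyte-like cells at 165.7 CPM (156.2 to 175.5), with 171.6, 162.9, 166.0 and 160.8 CPM by barcode number. These values exceeded all those of ependymocyte-like (65.01 to 124.3 CPM) and neuron-like cells (71.40 to 110.3 CPM), although the lead over ependymocyte-like cells was 1.84-fold (1.48 to 2.31) and short of 2-fold.

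The A plexins, which transmit class 3 and class 6 signals, were at or below 69.8 CPM in every type. Plxna2 was highest in endothelial-like cells at 69.8 CPM (39.1 to 115.1), on 15 UMIs, with 0, 88.03, 81.19 and 124.9 CPM by barcode number. Its lead over pars tuberalis-like cells (27.8 CPM, 15.2 to 46.7) was the least secure of the 11, with overlapping intervals and a log2 ratio of 0.83 without barcode number 2 and 0.06 at 1000 UMIs per cell. Plxna4 was highest in neuron-like cells at 23.3 CPM (19.8 to 27.3), and Plxna1 and Plxna3 in pars tuberalis-like cells at 23.8 and 17.9 CPM on 12 and 9 UMIs.

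The B plexins, receptors of class 4 semaphorins and, for Plxnb3, of Sema5a, had 3 different highest types. Plxnb3 was led by diffOPC-like cells at 173.5 CPM (150.1 to 199.5), with 218.0, 144.5, 146.3 and 173.3 CPM by barcode number. The next type, MOL-like cells, gave 26.44 to 44.03 CPM (ratio 4.82, 3.90 to 5.97), and OPC-like cells were at 25.2 CPM (17.3 to 35.6). Plxnb3 was found in 72.9% of diffOPC-like cells and 2.24% of microglia-like cells (median depths 8604 and 3079.5 UMIs), and at 1000 UMIs per cell in 13.2% and 0.746%. In MOL-like cells the shares were 21.3% (median depth 6150 UMIs) and, at 1000 UMIs per cell, 2.40%. Plxnb1 was highest in astrocyte-like cells at 93.8 CPM (84.4 to 103.9), 2.08 times (1.53 to 2.90) the level of ependymocyte-like cells. Plxnb2 was highest in ependymocyte-like cells at 135.1 CPM (113.3 to 159.9), followed by microglia-like cells at 91.9 CPM (76.4 to 109.6).

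Plxnc1, the receptor of Sema7a, was highest in neuron-like cells at 35.1 CPM (30.7 to 39.9), with 37.26, 29.71, 29.99 and 41.64 CPM by barcode number, and had 0 UMIs in endothelial-like cells, which allows up to 13.95 CPM. Plxnd1, known for its role in vessel patterning, was highest in endothelial-like cells at 23.3 CPM, but on 5 UMIs and with an interval of 7.55 to 54.3 CPM. Plxna4os1 was found almost only in microglia-like cells (59.8 CPM, 47.4 to 74.4) and macrophage-like cells (38.7 CPM, 23.0 to 61.2), with no more than 0.881 CPM in any other type. Plxna4 itself was at 9.71 CPM in microglia-like cells.

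Among the EphA receptors, Epha4, which binds ephrins of both types, was led by diffOPC-like cells at 175.3 CPM (151.8 to 201.4), with 167.9, 220.9, 182.8 and 134.8 CPM by barcode number. Endothelial-like cells came next at 69.8 CPM (39.1 to 115.1) on 15 UMIs, with values from 20.30 to 124.9 CPM, the highest of which lay just under the lowest of the diffOPC-like cells. Without barcode number 3, the log2 ratio was 0.65, and with the guidance genes left out of the clustering it was 0.92, both short of 2-fold. Epha5 was highest in OPC-like cells at 190.9 CPM (167.6 to 216.5), with 178.5, 169.3, 212.0 and 219.2 CPM by barcode number, followed by pars tuberalis-like cells at 97.3 CPM (72.0 to 128.7) and neuron-like cells at 93.8 CPM (86.6 to 101.5). Epha7 was highest in tanycyte-like cells at 19.8 CPM (16.6 to 23.4), while Epha1, Epha2, Epha3 and Epha10 had at most 23.3 CPM in any type.

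Of the EphB receptors, Ephb1 was highest in diffOPC-like cells at 108.3 CPM (90.0 to 129.3), then in MOL-like cells at 71.5 CPM (64.0 to 79.7) and tanycyte-like cells at 63.8 CPM (58.0 to 70.1). Ephb3 was shared by astrocyte-like cells, at 87.4 CPM (78.4 to 97.2), and OPC-like cells, at 59.2 CPM (46.5 to 74.2), with no more than 9.30 CPM elsewhere. Ephb4, a venous marker in other tissues, was at 46.5 CPM (22.3 to 85.5, 10 UMIs) in endothelial-like and 22.2 CPM (13.1 to 35.0) in VLMC-like cells, with overlapping intervals. Ephb6, which lacks kinase activity, was highest in OPC-like cells at 32.3 CPM (23.2 to 43.9), and Ephb2 stayed at or below 11.04 CPM.

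The oligodendrocyte lineage was then followed by stage, to ask which guidance genes differ as progenitors mature. Of the 51 genes, 27 had at least 20 UMIs over OPC-like and diffOPC-like cells together. Here and in the comparisons that follow, a difference of at least 2-fold was counted after adding 10 CPM to both levels, which holds back genes of low level, while the folds printed for single genes are plain ratios of CPM. Of these 27, 6, Plxnb3, Epha4, Ephb1, Sema4a, Sema4d and Sema5a, were at least 2-fold higher in diffOPC-like cells, beside 5.03% of the 9681 genes measured, and 7, Epha5, Ephb3, Ephb6, Nrp2, Plxnb2, Plxnc1 and Efnb1, were at least 2-fold lower, beside 13.4%. The median log2 fold was -0.48 for the guidance genes and -0.21 for all genes. With 1 CPM added in place of 10, the counts were 6 higher and 10 lower, and Sema4b (4.48-fold lower, 1.5 to 18.0), Nrp1 (4.25-fold, 1.41 to 17.2) and Sema4f (2.69-fold, 1.02 to 8.27) were past 2-fold as plain ratios. All 13 differences counted with 10 CPM added had the same direction in each barcode number. They were called on sums over these same numbers, so this describes spread only. Median depth was 8604 UMIs in diffOPC-like and 4025 in OPC-like cells.

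Among the 6 higher genes, Sema4a had 59.9 CPM in diffOPC-like against 2.37 CPM in OPC-like cells (3 UMIs, fold 25.3, 8.30 to 125.8). Sema4d stood at 99.5 against 10.3 CPM (fold 9.71, 5.45 to 18.8) and Ephb1 at 108.3 against 14.2 CPM (fold 7.63, 4.63 to 13.3). Plxnb3 was 6.88-fold (4.72 to 10.3) and Epha4 4.36-fold (3.19 to 6.05) higher. The ligands and the receptors were thus both represented, with 3 of each. In the other direction, Epha5 went from 190.9 CPM in OPC-like to 23.8 CPM in diffOPC-like cells (8.03-fold lower, 5.38 to 12.4), with 12.75 to 29.46 CPM by barcode number in the latter. Ephb3 was 7.46-fold (3.73 to 16.95) and Nrp2 3.94-fold (2.23 to 7.43) lower, whereas Plxnc1 had 22 UMIs in OPC-like and 0 in diffOPC-like cells, which allows up to 2.64 CPM.

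From diffOPC-like to MOL-like cells, 25 genes were measured. With 10 CPM added, Efnb3 and Efna1 were at least 2-fold higher in MOL-like cells, beside 6.73% of the 10211 genes, and 8, Sema3d, Sema4a, Sema4d, Sema5a, Sema5b, Plxna3, Plxnb3 and Epha4, were at least 2-fold lower, beside 13%. The median log2 fold was -0.14, and -0.27 over all genes. Efnb3 went from 25.5 to 391.0 CPM (15.3-fold, 10.6 to 22.9) and Efna1 from 3.52 CPM, on 4 UMIs, to 25.1 CPM (7.14-fold, 2.71 to 26.6). The 2 genes became 1 without barcode number 1 and 4 without barcode number 2. With 1 CPM added, 5 were higher and 10 lower, and as plain ratios Sema7a (6.03-fold, 1.58 to 51.2, on 2 UMIs in diffOPC-like cells), Ephb6 (3.14-fold, 1.15 to 11.95) and Sema4f (2.71-fold, 1.18 to 7.64) were also past 2-fold higher, and Epha5 (2.74-fold, 1.62 to 4.58) and Sema6b (5.23-fold, 2.46 to 11.35) past 2-fold lower.

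Plxnb3, Epha4, Sema4a, Sema4d and Sema5a were thus at least 2-fold higher, with 10 CPM added, in diffOPC-like cells than in the stage on either side. The share of all genes that met both limits was not counted, so this set is a description only. Sema5a was at 87.6, 233.4 and 16.7 CPM in OPC-like, diffOPC-like and MOL-like cells, and was 13.99-fold (10.8 to 18.3) lower in the last than in diffOPC-like cells. Sema3d kept its level over the first 2 stages and was 17.7-fold (12.1 to 26.7) lower in MOL-like cells. Sema5b was at 59.9, 37.9 and 0.217 CPM, the last on 1 UMI. Ephb1, higher in diffOPC-like than OPC-like cells, stayed at 71.5 CPM in MOL-like cells.

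**Figure D3:**
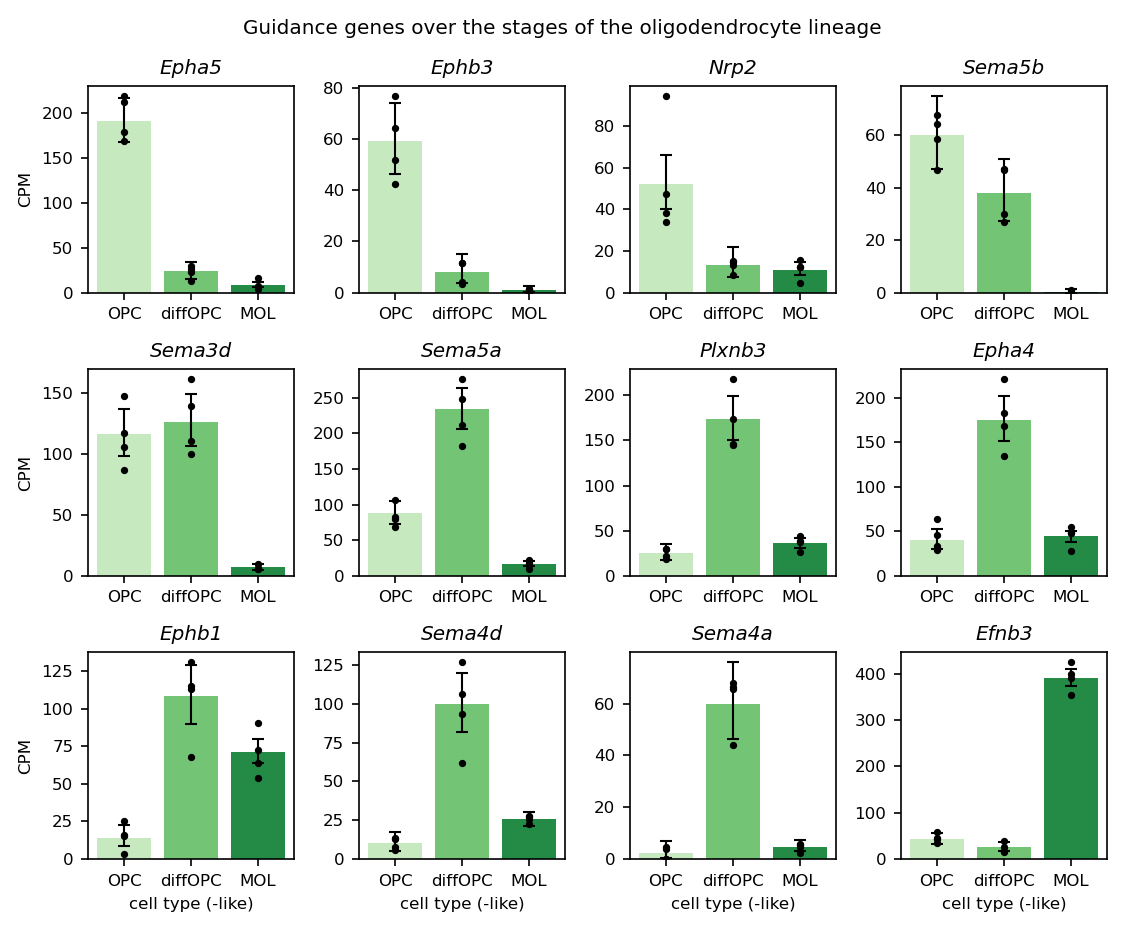
CPM of 12 guidance genes in OPC-like, diffOPC-like and MOL-like cells; bars give the level of the type, error bars its exact Poisson interval and points the 4 barcode numbers. Each panel has its own vertical axis from 0. Epha5, Ephb3 and Nrp2 are highest in OPC-like cells, Sema5a, Plxnb3, Epha4, Sema4d and Sema4a in diffOPC-like cells and Efnb3 in MOL-like cells.

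The MOL-like cells themselves were not uniform. A cluster of 27 cells led by Mag, with a median of 16682 UMIs and none called a doublet, had 366.5 CPM (311.9 to 427.9) of Sema6a, against 76.4 CPM in the Ptgds-led and 58.0 CPM in the Klk6-led cluster. Sema4f was at 110.0 CPM in the Mag-led cluster, 5.04 CPM in the Ptgds-led cluster and 0 UMIs in the Klk6-led cluster. Sema5a was at 114.5, 2.24 and 31.5 CPM and Sema4d at 98.5, 16.8 and 24.9 CPM in the same order. The Mag-led cells also had 135.2 CPM of the diffOPC marker Gpr17 and 217.6 CPM of Enpp6, against 1061 and 1105 CPM in diffOPC-like cells, and 6.87 CPM of Bmp4 against 1316 CPM. Enpp6 was not particular to them, since the Klk6-led cluster had 406.0 CPM of it, with 3.31 CPM of Gpr17. The part of their depth or of these markers in the higher semaphorin levels was not tested. Ephb1 was at 122.6 CPM in the Klk6-led and 60.7 CPM in the Ptgds-led cluster, while Epha4 was at 3.31 and 50.9 CPM.

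Tanycyte-like and astrocyte-like cells, the most numerous types, were compared next. The UMI minimum was met over the pair by 39 guidance genes. With 10 CPM added, 5 of these were at least 2-fold higher in tanycyte-like cells, beside 9.11% of the 12739 genes measured, and 7 were at least 2-fold lower, beside 6.11%. The median log2 fold was 0.22, and 0.12 over all genes. All 12 had the same direction in each barcode number, but they too were called on sums over these numbers. The balance turned with the added amount: with 1 CPM, 12 were higher and 8 lower. Counts of 5 and 7 were also found without the Gfap-led tanycyte-like cluster, a setting chosen after seeing the data. As plain ratios, genes of low level such as Efnb2 (11.4 against 2.04 CPM, 5.61-fold, 2.71 to 13.4) and Efna1 (8.25 against 1.53 CPM, 5.39-fold, 2.33 to 15.3) were past 2-fold as well.

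The higher genes were 2 ephrins and 3 receptors. Efna5 was at 215.0 against 17.3 CPM (12.4-fold, 9.73 to 16.1), Nrp2 at 165.7 against 15.03 CPM (11.02-fold, 8.48 to 14.6) and Ephb1 at 63.8 against 2.04 CPM (31.3-fold, 15.8 to 73.0). In each of these 3 genes the 4 values of the types did not come near each other, with 189.5 CPM as the lowest tanycyte-like and 17.76 CPM as the highest astrocyte-like value of Efna5. Efnb1 was 4.34-fold (3.12 to 6.201) and Epha4 3.50-fold (2.37 to 5.34) higher. The genes higher in astrocyte-like cells were Ephb3, at 87.4 against 8.97 CPM (9.74-fold, 7.42 to 12.99), Sema4a (5.21-fold, 4.08 to 6.69), Nrp1 (4.23-fold, 3.18 to 5.67), Sema4b (4.14-fold, 3.50 to 4.91), Efna2 (3.23-fold, 2.54 to 4.12), Sema6d (2.69-fold, 2.32 to 3.12) and Plxnb1 (2.26-fold, 1.93 to 2.64). The neuropilins and the pair Ephb1 and Ephb3 thus lay on opposite sides of this comparison.

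**Figure D4:**
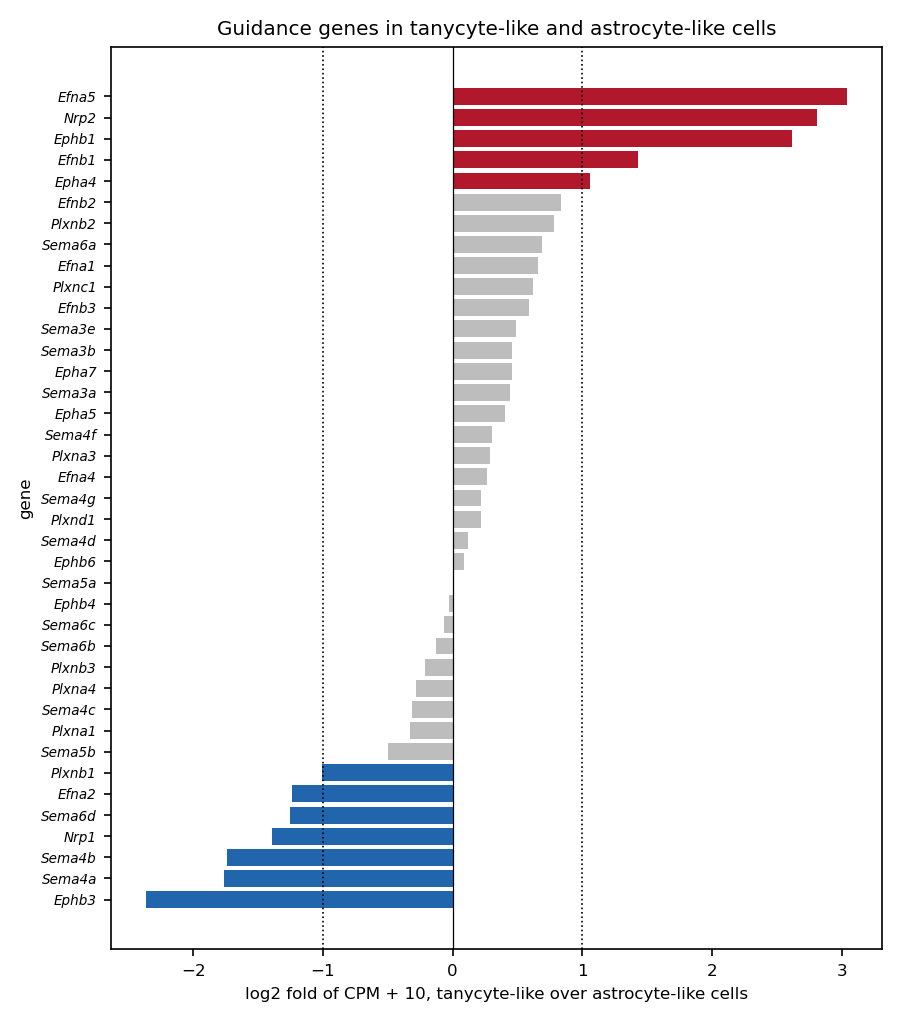
Log2 fold of CPM + 10 in tanycyte-like over astrocyte-like cells for the 39 guidance genes measured in both (bars, largest at the top). Red bars are at least 2-fold higher and blue bars at least 2-fold lower in tanycyte-like cells, with dotted lines at 1 and -1; Efna5 and Nrp2 lie at one end and Ephb3 at the other.

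The 3 tanycyte-like clusters differed among themselves. Efna5 was at 298.6 CPM (278.9 to 319.3) in the Scn7a-led cluster, 184.9 (168.8 to 202.2) in the Dio3-led cluster and 103.5 (87.5 to 121.5) in the Gfap-led cluster. Ephb1 had the reverse order in the first pair, with 37.4, 114.1 and 25.0 CPM, and so had Epha5 with 16.1, 40.6 and 6.94 CPM. Epha4 was mostly in the Scn7a-led cluster, at 52.5 CPM against 12.6 and 1.39 CPM. Nrp2 was similar in all 3, at 169.9, 151.6 and 182.6 CPM. The Gfap-led cluster had 111.8 CPM of Sema6d against 20.3 and 31.4 CPM, and 12.5 CPM of Efnb1 against 45.1 and 60.9 CPM. In the astrocyte-like cells the Gfap-led cluster likewise stood apart, with Nrp2 at 73.4 CPM (4.71 in the Agt-led and 18.2 in the Spry2-led cluster) and Efna5 at 57.8 CPM (9.05 and 23.8), and 12 of its 147 cells were called doublets. The part of those cells in these values was not tested.

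In the vessel wall, endothelial-like and mural-like cells together gave 20 or more UMIs for 5 guidance genes. Sema3c, Sema7a, Efna1 and Nrp1 were at least 2-fold higher in endothelial-like cells with 10 CPM added, beside 17.2% of the 3737 genes measured, and Sema6d was at least 2-fold lower, beside 13.5%. Sema3c, Sema7a and Efna1 reached the minimum almost only through endothelial-like cells. That all 5 were called is therefore partly a product of the minimum and not a result about these genes. Sema3c and Sema7a had 0 UMIs in mural-like cells, Efna1 had 2 and Nrp1 had 24 (106.7 CPM, 2.79-fold, 1.72 to 4.66). Sema6d was at 23.3 CPM (5 UMIs) in endothelial-like and 80.0 CPM (18 UMIs) in mural-like cells, with that direction in 3 of the 4 barcode numbers, and dropped out of the count without barcode number 2 and without barcode number 3.

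Neuron-like cells were highest for 5 genes (Sema4f, Efna3, Plxna4, Plxnc1 and Epha10), none with a 2-fold lead, and this count was 3 without barcode number 2 and 3 at 1000 UMIs per cell. Their clusters, led by Sst, by Rgs16 (with Vip and Avp) and by Agrp, differed more. Epha5 was at 250.4 CPM (210.1 to 296.2) in the Rgs16-led cluster, 92.4 CPM (84.1 to 101.3) in the Sst-led cluster and 25.4 CPM (17 to 36.5) in the Agrp-led cluster. Efna5, a ligand of Epha5, ran the other way, at 27.6 CPM (15.5 to 45.6) in the Rgs16-led cluster and 128.6 and 131.3 CPM in the Sst-led and Agrp-led clusters. Ephb1 was also highest in the Rgs16-led cluster, at 27.6 CPM against 7.51 and 0.876 CPM, whereas Nrp2 was highest in the Sst-led cluster at 99.7 CPM, against 62.6 and 35.0 CPM.

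Ligands and receptors were then set side by side over 38 pairs taken from textbook knowledge, of which 37 had both genes above the minimum. In 4 the ligand and the receptor had the same highest type: Sema3c with Nrp1 and Efna1 with Epha2 in endothelial-like cells, Sema5a with Plxnb3 in diffOPC-like cells, and Efna5 with Epha7 in tanycyte-like cells. The share among pairs of other genes was not counted, so the 4 are a description only. Epha2 rested on 5 UMIs there, Nrp1 was nearly as high in macrophage-like cells (297.7 against 284.1 CPM), and Epha7 had no 2-fold lead. That number was 2 without barcode number 4 and 5 without barcode number 2 or 3. With 10 CPM added to each level, 23 of the 37 pairs had at least 1 type within 2-fold of the highest level of both genes. Genes of low level meet this limit by the added amount alone. Sema3f peaked at 9.30 CPM, so even a type without any UMI passed, and its pair with Nrp2 was bound to count. Ephb2, at most 11.04 CPM, was nearly as permissive in its pairs with Efna5 and Efnb1. The share among pairs of other genes was not counted here either, so the 23 are a description only.

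Both genes of a pair were also sought in single cells. Sema3c and Nrp1 were found together in 21 of 84 endothelial-like cells (25.0%), Sema5a and Plxnb3 in 75 of 129 diffOPC-like cells (58.1%), Efna5 and Epha7 in 60 of 1634 tanycyte-like cells (3.67%) and Efna1 and Epha2 in 0 of 84 endothelial-like cells. Taken singly, the ligand and the receptor were in 39 and 38, 92 and 94, 843 and 123, and 17 and 4 of these cells. Whether both occurred together more often than the single counts imply was not tested. Such shares depend on the depth of each type and were not compared between types. Among pairs with separate types, Sema7a was highest in endothelial-like cells and Plxnc1 in neuron-like cells, with 1.06 CPM of Sema7a in the latter. Efnb3 in MOL-like cells (391.0 CPM) stood opposite Epha4 in diffOPC-like cells (175.3 CPM), each lower in the other type (25.5 CPM of Efnb3 and 44.2 CPM of Epha4). Efna5, highest in tanycyte-like cells, was listed with Epha5, highest in OPC-like cells, and with Epha4, highest in diffOPC-like cells. Efna5 was at 1.58 CPM in OPC-like and 1.76 CPM in diffOPC-like cells. Neuron-like cells held both Efna5 (120.7 CPM) and Epha5 (93.8 CPM).

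**Figure D5:**
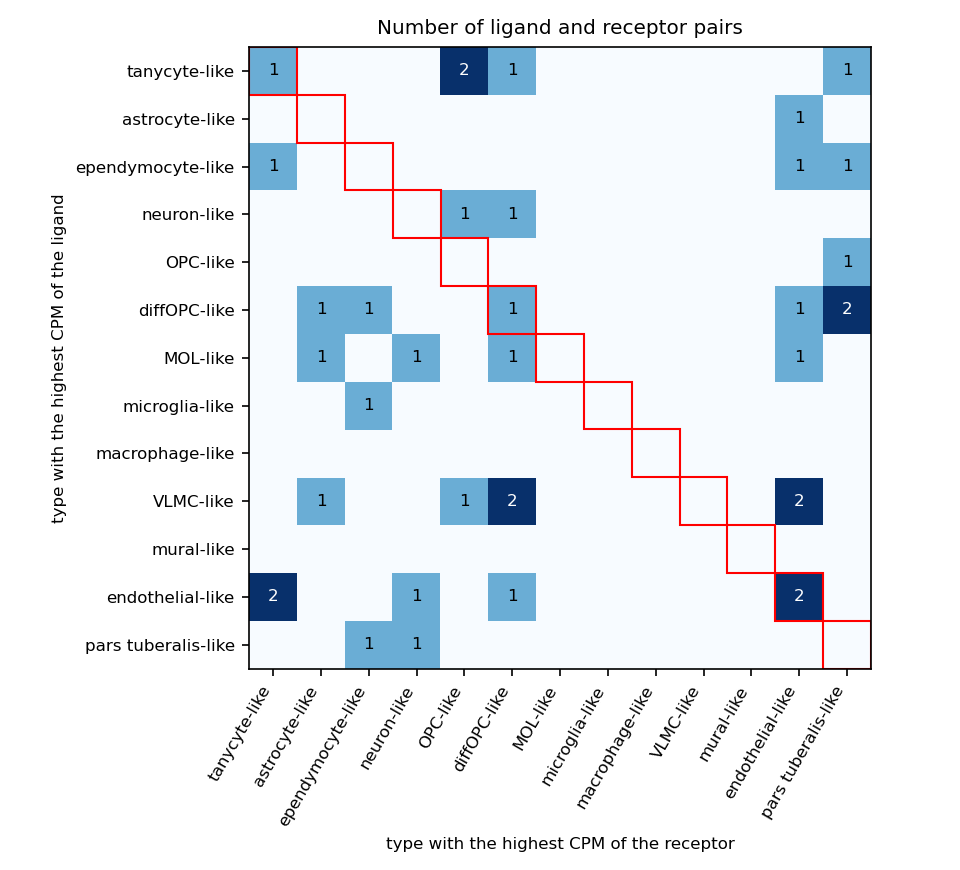
Number of the 37 measured ligand and receptor pairs by the type with the highest CPM of the ligand (vertical axis) and of the receptor (horizontal axis). The diagonal, outlined in red, holds the 4 pairs with the same highest type: 2 in endothelial-like, 1 in diffOPC-like and 1 in tanycyte-like cells.

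Of 49 genes listed as intracellular effectors, co-receptors or sheddases of these pathways, 48 had at least 20 UMIs and 10 (20.8%) had a leading type, beside the 16% of all genes. Of these 10, 4 were led by diffOPC-like cells, beside 0.959% of all genes, and 2 by endothelial-like cells, beside 1.95%. Fyn, a kinase downstream of plexins and Eph receptors, was at 3251 CPM in diffOPC-like against 160.9 CPM in OPC-like cells. Fyn is itself on the diffOPC marker list, so its place among the 4 is partly how that type was named. Arhgap35 was at 165.6 CPM (142.8 to 191.0) and Gipc1, an adaptor that binds neuropilin, at 407.8 CPM (371.5 to 446.7) in diffOPC-like cells, against 63.1 CPM in OPC-like and 164.5 CPM in mural-like cells. Kdr, the vascular endothelial growth factor receptor that pairs with Nrp1, was at 209.3 CPM (152.7 to 280.1) in endothelial-like and 5.01 CPM in ependymocyte-like cells, the next type. Nck2, an adaptor of Eph signalling, was at 25.0 CPM (16.2 to 36.9) in ependymocyte-like cells.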

How the data were processed

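Per the labels and the study's methods, live sorted cells of the median eminence were encapsulated with the 10x Single Cell 3' V2 kit, and the authors deposited 1 matrix of UMI counts per gene and cell made with Cell Ranger 2.0 on mm10. The annotation release and the cell-calling settings are not given in the sources used here. The counts were not normalised, and no column of per-sample values was left unused (0). GENCODE vM21 gave symbols for 27645 of 27998 gene IDs. Total counts were 29288898 UMIs, with a median of 3837 per cell (1533 to 25054), and the barcode numbers held 6508038 to 7806887 UMIs.

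All 5982 cells were kept. Counts were scaled per cell and log-transformed, and 2000 variable genes, 30 principal components, 15 neighbours and Leiden clustering at resolution 1 gave 24 clusters (scanpy 1.11.5, igraph 0.11.9). Clusters were named from 13 marker lists where the mean marker score was at least 0.3 and 1.5 times the next list's. At least 3 markers had to be 4-fold over the median of all clusters, with 10 CPM added to both. Either a listed gene was among the top 10 genes or 75% of the list was 4-fold higher in the same way. These limits were set after seeing the data. With at least 10% of UMIs from 4 haemoglobin genes, 3 cells were set apart. Scrublet called 50 cells (0.836%) doublets, which were kept. The members, lists, pairs and motifs were chosen with earlier results of these data known. Every gene could be named, with full values for those of largest ratio between types, the most abundant of each family, pairs with the same highest type and lineage or tanycyte genes, and the 5 effectors of largest ratio.

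UMI counts were summed per type and scaled to 1000000 (CPM), and 2-fold differences were counted after adding 10 CPM. Intervals are exact Poisson (levels), conditional binomial (ratios) or Clopper-Pearson (shares), all at 95% and for counting error only, and a count of 0 was read as up to 3 counts (scipy 1.17.1). With 1 sample there was no test and no p-value. The code was tested on simulated data. Strand settings of the counting are not given in the sources used here, so reads of Plxna4os1 and Plxna4 may not be fully separated. Alternatives were Leiden resolutions 0.5 and 2, K-means with 9 clusters on 10 components, clustering without the guidance genes, leaving out doublets, a cell filter (1000 UMIs or more, mitochondrial share up to 20%), dropping each barcode number in turn, cells thinned to 1000 UMIs, a pseudocount of 1 CPM in place of 10, and a minimum of 50 UMIs.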

Additional observations from a re-analysis of the deposited data

Results flagged for a closer look

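For each of the 11 genes with a leading type, the 4 barcode numbers were searched for a value far from the other 3. One gene (1 of 11) met the limit: Efna1 was at 124.9 CPM in the endothelial-like cells of barcode number 4, against 73.8 to 81.2 CPM in the other numbers. Barcode number 4 held 12 of the 84 endothelial-like cells, and 1 UMI there was worth 31.2 CPM. The value of 124.9 CPM thus rested on few transcripts. It lay within the counting interval of the whole type, 49.6 to 132.3 CPM on 18 UMIs. About 1 in 20 such groups would be picked out by chance.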

How the results depend on the processing

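No paired analysis was possible because the columns carry no replicate number that the labels tie to a library, and no result came from a test. Of 135 recomputed counts, 117 stayed within 1.5 times the main value and 18 did not. Of 121 recomputed log2 folds of the 11 genes with a leading type, 26 were classed as moved, 0 reversed and 115 remained past 1. The 121 include the setting without the Gfap-led tanycyte-like cluster, which cannot change the folds of these 11 genes. The number of genes with a leading type ran from 10 to 16. K-means left 1719 cells unnamed, so only the tanycyte-like and astrocyte-like comparison could be recomputed with it. The causes of the differences below were not tested, except that thinning and the minimum of 50 UMIs leave fewer genes measured.

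Genes higher in MOL-like than diffOPC-like cells (2 in the main analysis) were 1 with the guidance genes left out of the clustering, 5 with a pseudocount of 1 CPM and 1 to 4 with a barcode number left out. With cells thinned to 1000 UMIs, 3 genes were higher and 3 lower in diffOPC-like than OPC-like cells (6 and 7 in the main analysis, 6 to 8 and 6 to 8 with a number left out), 5 were lower in MOL-like than diffOPC-like cells (8; 7 to 9), 2 were higher and 0 lower in endothelial-like than mural-like cells (4 and 1; 3 to 4 and 0 to 1), and 3 were highest in neuron-like cells (5; 3 to 5). At a minimum of 50 UMIs, 3 were lower in diffOPC-like than OPC-like cells, and 2 were higher and 0 lower in endothelial-like than mural-like cells. With a pseudocount of 1 CPM, 12 were higher and 8 lower in tanycyte-like than astrocyte-like cells (5 and 7). Pairs with the same highest type numbered 2 to 5 with a barcode number left out (4). Depth limits the vessel-wall types most, at 215009 and 224933 UMIs in all.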

Other observations

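The clusters left unnamed also held guidance transcripts. In the 41 cells led by Ccn3, Nrp1 was at 194.9 CPM (137.2 to 268.6, 37 UMIs), Efna5 at 94.8 CPM (56.2 to 149.8, 18 UMIs), Efnb1 at 57.9 CPM (28.9 to 103.7, 11 UMIs) and Ephb6 at 52.7 CPM (25.3 to 96.9, 10 UMIs). In the 19 cells led by Ccl5, a chemokine of lymphocytes and other immune cells, Sema4a was at 121.3 CPM (48.8 to 249.9) on 7 UMIs and Sema4d at 86.6 CPM (28.1 to 202.2) on 5 UMIs, while Nrp1 had 1 UMI and Nrp2 and Efna5 had 0.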
